A study of Rattus norvegicus with 10 samples.

Results

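The 33 genes described here encode the liver enzymes that break amino acids down and the urea cycle that disposes of the nitrogen they release. They were listed by name as enzymes and carriers of these pathways, with earlier results of these data known. Counts of them beside shares of all genes are therefore not a test of the list. Each is represented by 1 probe set, the brightest on average across the 10 arrays of those annotated to it alone. All 33 had such a probe set, of 14217 genes measured. Prodh was listed under its older symbol Prodh1. The tissue was liver of female rats (Harlan Sprague-Dawley), with 5 samples in each of 2 groups. One group was given indole-3-carbinol (I3C), a compound from cruciferous vegetables, at 300 mg/kg in corn oil, and the other, the vehicle group, corn oil alone (0 mg/kg). Both were gavaged on 5 days of each week for 13 weeks according to the sample labels, while the series text describes a study of 2 years. The animals' ages are not given in the labels, and no label ties a sample to an animal number, so the p-values rest on the spread among samples, part of which may be technical. Expression was read on Affymetrix arrays as log2 values.

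Protein eaten in excess of need is burned mainly in the liver. Most amino acids first pass their amino group to glutamate, and glutamate dehydrogenase sets it free as ammonia in the mitochondrion. The urea cycle joins that ammonia with the nitrogen of aspartate into urea. The carbon skeletons go to glucose or ketone bodies, and each amino acid has its own chain of enzymes for this. Many of these enzymes are controlled through their transcripts by glucocorticoids, glucagon and the supply of protein. Around the portal vein, hepatocytes are known to be rich in the urea cycle, glutaminase and histidine-degrading enzymes, whereas those around the central vein hold glutamine synthetase.

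Promoters are shown first for 4 of the genes that changed, because I3C is known as a source of ligands of the aryl hydrocarbon receptor, whose binding site has the core GCGTG. RefSeq promoter entries on build GRCr8 were matched by symbol for 26 of the 33 genes, in 27 windows (not Arg1, Hal, Gpt, Sds, Sdsl, Prodh and Bckdha). The 250 bases before the annotated gene start are printed 5′ to 3′ on the gene's strand, with GCGTG or its reverse complement CACGC in capitals. Gls2 lies at chr7:1201629-1201878, Gnmt at chr9:21752032-21752281, Uroc1 at chr4:124401869-124402118 and Tat at chr19:54856354-54856603, all on the plus strand.
Gls2: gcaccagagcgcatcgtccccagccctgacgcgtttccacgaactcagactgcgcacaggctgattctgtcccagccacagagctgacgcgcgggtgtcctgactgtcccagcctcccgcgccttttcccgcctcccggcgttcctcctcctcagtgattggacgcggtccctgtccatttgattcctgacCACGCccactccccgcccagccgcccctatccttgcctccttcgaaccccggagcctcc
Gnmt: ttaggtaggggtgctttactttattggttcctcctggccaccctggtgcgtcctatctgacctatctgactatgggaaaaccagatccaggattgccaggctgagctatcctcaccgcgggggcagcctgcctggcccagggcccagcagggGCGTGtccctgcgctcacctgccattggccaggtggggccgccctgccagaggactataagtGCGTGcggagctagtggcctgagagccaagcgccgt
Uroc1: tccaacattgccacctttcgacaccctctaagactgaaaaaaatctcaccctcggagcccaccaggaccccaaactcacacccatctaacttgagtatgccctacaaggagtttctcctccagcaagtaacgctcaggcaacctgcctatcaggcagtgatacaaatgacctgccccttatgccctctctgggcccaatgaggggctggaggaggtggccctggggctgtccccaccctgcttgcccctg
Tat: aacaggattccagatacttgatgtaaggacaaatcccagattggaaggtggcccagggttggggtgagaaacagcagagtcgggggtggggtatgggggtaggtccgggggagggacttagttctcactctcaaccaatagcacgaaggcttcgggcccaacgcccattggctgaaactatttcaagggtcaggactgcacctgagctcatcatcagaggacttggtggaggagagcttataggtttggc

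The core letters stand 1 time in the Gls2 window, 2 times in that of Gnmt and 0 times in those of Uroc1 and Tat. Across the 26 genes with an entry, 10 had them on either strand (38.5%), against 8666 of all 33469 rat promoter windows (25.9%). The 10 were Otc, Ass1, Slc25a15, Fah, Got1, Gls2, Glud1, Bcat2, Bhmt and Gnmt, of which Gls2, Glud1 and Gnmt are among the 7 changed genes with an entry. TGACG, found in cAMP response elements, was in 3 of the 26 genes (Gls2, Aass and Mat1a, 11.5%, against 18.2% of all windows). GATGCAA, part of the element bound by C/EBP-ATF pairs, was in 2 genes (Hgd and Got1, 7.69%, against 2.19%). The 26 genes have 27 windows and count once each, so their shares are of genes and the others of windows. In the 4 windows printed no match overlapped another. A match describes letters in this window and is not evidence of binding.

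Between I3C and vehicle livers 1 of the 33 genes rose and 7 fell, and 25 did not pass. Tyrosine aminotransferase, Tat, was the gene that rose, to 190% of the vehicle level. The falls were those of histidine ammonia-lyase (Hal) and urocanate hydratase (Uroc1) of histidine breakdown, the liver glutaminase Gls2, glutamate dehydrogenase (Glud1), glycine N-methyltransferase (Gnmt), homogentisate dioxygenase (Hgd) of tyrosine breakdown, and the glycine cleavage decarboxylase Gldc. Their levels in I3C livers lay between 46.8% and 75.8% of the vehicle level. None of the 7 urea cycle genes passed. A gene "rose" or "fell" where limma's adjusted p was under 0.05, adjusted over 31042 probe sets by the Benjamini-Hochberg method. A further 12 of the 25 others had an unadjusted p under 0.05, so that 20 of the 33 did, against 19.8% of all genes. Of these 20, 14 were lower and 6 higher, and of all 14217 genes 1451 were lower and 1367 higher at that level. Of the 7109 genes at or above the median brightness, a set with a larger share, 1038 were lower and 1036 higher. By the adjusted rule 6.43% of all 14217 genes changed, 3.32% up and 3.11% down. Among the 7109 genes at or above the median brightness, where 32 of the 33 lie, 10.6% changed, 5.56% up and 5.04% down. The median difference over the 33 genes, I3C minus vehicle, was -0.10 on the log2 scale, and over all genes it was -0.004. In whole liver, fewer cells of a type and less RNA per cell cannot be told apart.

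**Figure D1:**
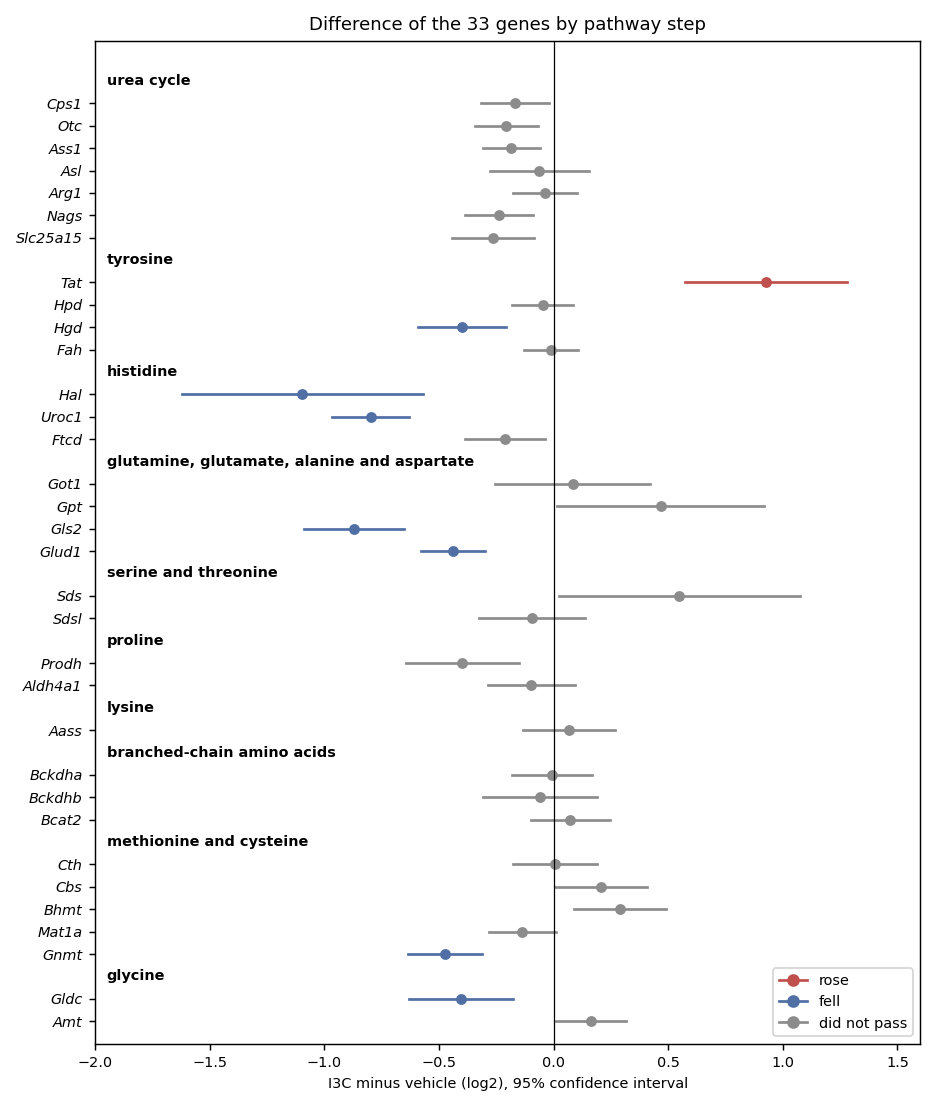
Difference between I3C and vehicle livers (log2, horizontal axis) of each of the 33 genes, grouped by pathway step, with points for the estimates and lines for 95% confidence intervals from the limma fit. Hal, Gls2 and Uroc1 lie farthest to the left and Tat farthest to the right, while all 7 urea cycle genes sit between -0.27 and -0.04.

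The groups did not overlap for 9 genes that were lower and 1 that was higher in I3C livers, where 8.67% of all genes were separated, 4.07% lower and 4.61% higher. Of the 7109 genes at or above the median brightness 471 were separated lower and 548 higher. Among the separated genes, Otc, Ass1 and Nags of the urea cycle did not pass the test across all probe sets. A sign of RNA quality moved with the groups as well. The GAPDH control signal at the 3′ end exceeded that at the 5′ end by 0.23 ± 0.05 in I3C arrays and by 0.45 ± 0.12 in vehicle arrays (SD, n = 5 each, log2; exact permutation test over 252 splits, two-sided, p = 0.00794, the smallest possible, and 0.0159 after adjustment over 2 measures). The ranges, 0.156 to 0.288 in I3C arrays and 0.320 to 0.649 in vehicle arrays, did not overlap. Treatment and this sign of RNA quality therefore cannot be told apart here, with or without the GAPDH difference in the model. The same measure of beta-actin was 1.40 ± 0.14 in I3C arrays and 1.59 ± 0.12 in vehicle arrays (exact permutation p = 0.0476, adjusted 0.0476). With the GAPDH difference in the model 0 of the 33 genes rose and 4 fell, where 1.6% of all genes changed, 0.802% in each direction: Uroc1, Gls2, Gnmt and, in addition, proline dehydrogenase (Prodh). With the beta-actin difference 0 rose and 4 fell (Uroc1, Gls2, Glud1 and Gnmt), where 3.5% of all genes changed, 1.98% up and 1.52% down. Vehicle 5 had the largest GAPDH difference (0.65) and stood apart from the other arrays on the second principal component. Without it 9 of the 33 genes changed, Nags and Prodh joining the falls and Gldc leaving them, where 8.74% of all genes changed, 3.83% up and 4.92% down. Without vehicle 1 Tat still rose and 4 fell, where 4.92% of all genes changed, 2.58% up and 2.34% down, and Hgd, Hal and Gldc lost their calls.

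In the urea cycle every gene was lower in the mean of the I3C livers, by small amounts that did not pass. Cps1, carbamoyl phosphate synthetase, takes free ammonia into the cycle. Its values were 13.37, 13.61, 13.60, 13.54 and 13.63 in I3C livers 1 to 5, against 13.71, 13.78, 13.61, 13.77 and 13.73 in vehicle livers 1 to 5 (log2). Only vehicle 3 reached into the I3C range, and the I3C mean corresponded to 89.0% of the vehicle level (95% interval 80.4% to 98.5%, limma adjusted p = 0.226). Its other probe set differed by -0.25 ± 0.08 (SE, limma adjusted p = 0.121).

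Nags makes the N-acetylglutamate without which Cps1 is inactive. It measured 9.92, 9.89, 9.74, 9.95 and 9.85 in I3C livers 1 to 5, against 10.21, 10.19, 10.12, 10.04 and 9.99 in vehicle livers 1 to 5. All I3C values lay under the lowest vehicle value, that of vehicle 5. The difference of -0.24 ± 0.07 (SE, n = 5 per group, limma adjusted p = 0.0703) passed without vehicle 5 (-0.27, limma adjusted p = 0.029) and with no other single array left out.

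Otc, ornithine transcarbamylase, joins carbamoyl phosphate to ornithine. Its values were 12.05, 11.89, 12.05, 11.95 and 11.84 in I3C livers 1 to 5 and 12.24, 12.11, 12.22, 12.13 and 12.11 in vehicle livers 1 to 5. The groups were separate, with a difference of -0.21 ± 0.06 (SE, limma adjusted p = 0.0945). Slc25a15, which carries ornithine into the mitochondrion, had 11.53, 11.89, 11.71, 11.80 and 11.81 in I3C livers 1 to 5 and 12.09, 12.01, 11.81, 12.02 and 12.15 in vehicle livers 1 to 5. Vehicle 3 lay within the I3C range, and the difference was -0.27 ± 0.08 (SE, limma adjusted p = 0.101). The other 5 Slc25a15 probe sets ranged from -0.26 to 0.13, so its probe sets disagree in sign, and none passed.

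Ass1, argininosuccinate synthase, brings in the second nitrogen from aspartate. It read 13.49, 13.56, 13.48, 13.57 and 13.47 in I3C livers 1 to 5, against 13.72, 13.78, 13.67, 13.62 and 13.71 in vehicle livers 1 to 5. The groups did not overlap, and the I3C mean was 87.9% of the vehicle level (95% interval 80.7% to 95.8%, limma adjusted p = 0.0966). The lyase Asl, which splits argininosuccinate into arginine and fumarate, had all its vehicle values within the I3C range.

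Asl had 11.34, 11.87, 11.47, 11.73 and 11.49 in I3C livers 1 to 5 and 11.63, 11.78, 11.49, 11.74 and 11.59 in vehicle livers 1 to 5, a difference of -0.06 ± 0.10 (SE, limma adjusted p = 0.857). Arg1, arginase, which releases urea, had 13.53, 13.62, 13.60, 13.70 and 13.57 in I3C livers 1 to 5 and 13.63, 13.81, 13.60, 13.57 and 13.60 in vehicle livers 1 to 5. Its difference was -0.04 ± 0.06 (SE, limma adjusted p = 0.877), with a 95% interval of 88.5% to 107% of the vehicle level. At an unadjusted p under 0.05 limma placed 5 of the 7 genes lower and 0 higher, the exceptions being Asl and Arg1. At that level 1451 of all 14217 genes were lower, and 1038 of the 7109 at or above the median brightness. Renewed quantile normalisation called Cps1 and Ass1 lower, array weights called Otc and Nags, the unmoderated fit and the variance trend each called Ass1, and the brightness filter and the mean of probe sets each called Nags.

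**Figure D2:**
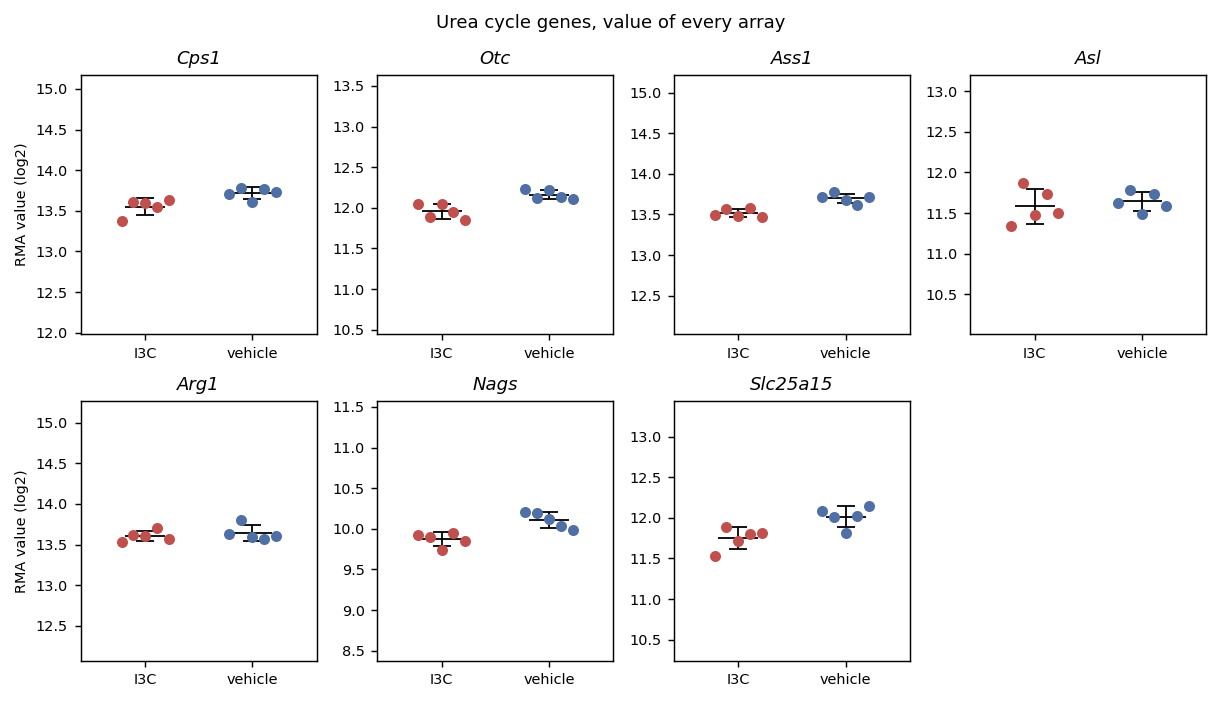
RMA values (log2, vertical axis, the same span in every panel) of the 7 urea cycle genes in each I3C array (left, red) and each vehicle array (right, blue), with bars for the mean and SD of 5. The I3C points of Otc, Ass1 and Nags lie below all vehicle points, and those of Asl and Arg1 overlap them.

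Of 5 further measured genes around the cycle 1 fell and 0 rose. Slc25a13, the mitochondrial aspartate-glutamate carrier that supplies aspartate to Ass1, was 11.41 to 11.73 in I3C livers and 11.85 to 12.10 in vehicle livers. It fell by 0.40 ± 0.08 (SE, log2, limma adjusted p = 0.00857). Its dimmer probe set differed by -0.23 and did not pass, nor did the brighter with the GAPDH difference in the model (-0.50 ± 0.12, limma adjusted p = 0.0868).

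In histidine breakdown 2 of the 3 genes fell, with Hal the largest fall among the 33. Hal removes ammonia from histidine to give urocanate. It measured 9.85, 11.31, 11.24, 11.00 and 11.46 in I3C livers 1 to 5, against 12.28, 12.00, 12.16, 11.96 and 11.96 in vehicle livers 1 to 5. Every I3C value was lower than every vehicle value, and I3C 1 stood far below the other I3C livers.

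The Hal mean was 10.97 ± 0.65 in I3C livers and 12.07 ± 0.14 in vehicle livers (SD, n = 5 each), a fall to 46.8% of the vehicle level (95% interval 32.5% to 67.3%, limma adjusted p = 0.0202). Without I3C 1 the difference was -0.82 and still passed (limma adjusted p = 0.00129). The call ended without vehicle 1 (-1.04, limma adjusted p = 0.0547) or vehicle 3 (-1.07, limma adjusted p = 0.0517). It also ended with the GAPDH difference in the model, at almost the same size (-1.06 ± 0.41, limma adjusted p = 0.266).

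Uroc1 turns urocanate into the next intermediate on the way to glutamate. Its values were 11.26, 11.17, 11.22, 11.06 and 10.97 in I3C livers 1 to 5, against 12.02, 11.91, 12.06, 11.90 and 11.78 in vehicle livers 1 to 5. The groups were far apart and each was tight. The fall of 0.80 ± 0.08 on the log2 scale (SE, limma adjusted p = 8.73e-05) left 57.5% of the vehicle level (95% interval 51.2% to 64.6%), and it was -0.89 ± 0.12 with the GAPDH difference in the model (limma adjusted p = 0.00728).

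Ftcd, which hands the one-carbon unit of histidine to folate and completes the path, averaged 12.33 ± 0.16 in I3C livers and 12.54 ± 0.08 in vehicle livers (SD, n = 5 each). It did not pass (-0.21 ± 0.08, SE, limma adjusted p = 0.196). Hdc, which makes histamine from histidine instead, differed by -0.29 ± 0.26 (SE, limma adjusted p = 0.692).

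Enzymes of glutamine, glutamate, alanine and aspartate free or pass on amino groups. Of the 4 such genes among the 33, 2 fell, and of 9 further measured ones 3 fell, with 0 rising in either. Gls2, the liver-type glutaminase, releases ammonia from glutamine. It read 9.81, 10.24, 10.31, 10.26 and 10.03 in I3C livers 1 to 5, against 11.18, 10.99, 10.99, 11.02 and 10.81 in vehicle livers 1 to 5.

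No I3C value of Gls2 came within the vehicle range, and the I3C mean was 54.8% of the vehicle level (95% interval 47.1% to 63.7%, limma adjusted p = 0.000336). The fall was 0.87 ± 0.10 (SE, log2). With the GAPDH difference in the model it was -1.002 ± 0.163 (SE, limma adjusted p = 0.014). Glul, glutamine synthetase, which runs the opposite reaction in cells around the central vein, fell as well, by 0.98 ± 0.13 (SE, limma adjusted p = 0.000634), and did not pass under the GAPDH model (-0.85 ± 0.21, limma adjusted p = 0.0855). Its 2 dimmer probe sets differed by -0.50 (limma adjusted p = 0.00831) and -0.38 (limma adjusted p = 0.129).

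Glud1 releases ammonia from glutamate. It had 12.88, 12.98, 13.04, 13.09 and 12.95 in I3C livers 1 to 5 and 13.38, 13.48, 13.45, 13.31 and 13.50 in vehicle livers 1 to 5. The groups were separate, and the fall of 0.44 ± 0.06 on the log2 scale (SE, limma adjusted p = 0.00173) also passed in its second probe set (-0.53 ± 0.07, SE, limma adjusted p = 0.000731). With the GAPDH difference in the model the value was -0.43 ± 0.11 and did not pass (limma adjusted p = 0.0921).

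The cytosolic aminotransferases did not pass. Got1, aspartate aminotransferase, averaged 10.64 ± 0.30 in I3C livers and 10.55 ± 0.28 in vehicle livers (SD, n = 5 each, limma adjusted p = 0.882). Gpt, alanine aminotransferase, averaged 10.17 ± 0.26 in I3C livers and 9.70 ± 0.51 in vehicle livers (limma adjusted p = 0.291). The Gpt difference was 0.47 ± 0.21 (SE) in the fit of the groups alone and -0.21 with the GAPDH difference in the model, and it passed in neither.

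Their mitochondrial counterparts fell. Gpt2 was 9.40 to 9.66 in I3C livers and 10.01 to 10.63 in vehicle livers, a fall of 0.69 ± 0.11 (SE, limma adjusted p = 0.00248). Got2 was 11.71 to 11.89 in I3C livers and 12.10 to 12.26 in vehicle livers, a fall of 0.37 ± 0.06 (SE, limma adjusted p = 0.00355). Asrgl1, an asparaginase, was 8.81 to 9.07 in I3C livers and 9.43 to 9.68 in vehicle livers, a fall of 0.61 ± 0.08 (SE, limma adjusted p = 0.000601). None of these 3 overlapped between the groups. Of their dimmer probe sets 1 of Asrgl1 passed (-0.45, limma adjusted p = 0.0181), and the other of Asrgl1 (0.007) and those of Gpt2 (-0.41) and Got2 (-0.18) did not. Gpt2 and Asrgl1 passed with the GAPDH difference in the model and Got2 did not (-0.31 ± 0.10, limma adjusted p = 0.177). Whether the cytosolic and mitochondrial forms differ in their response was not tested.

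**Figure D3:**
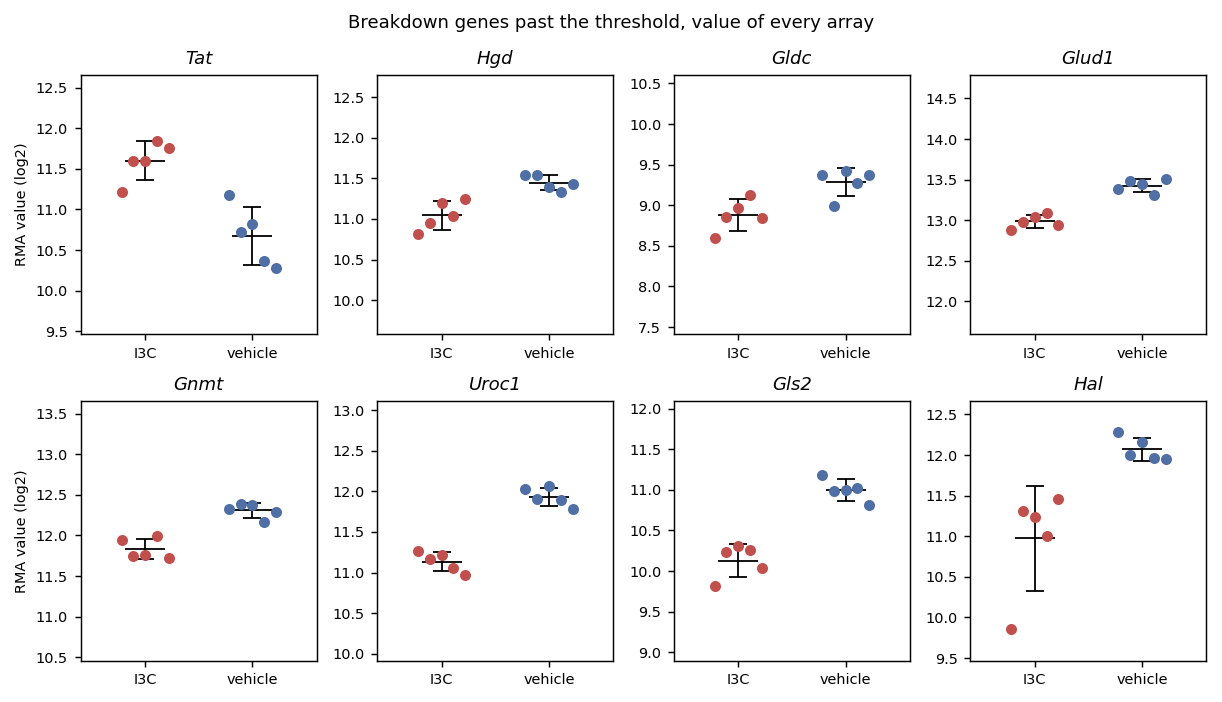
RMA values (log2, vertical axis, the same span in every panel) of the 8 changed genes in each I3C array (left, red) and each vehicle array (right, blue), with bars for the mean and SD of 5. The groups are apart for all but Gldc, where I3C 4 at 9.12 lies above vehicle 2 at 9.00, and the lowest Hal point is I3C 1 at 9.85.

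In tyrosine breakdown the entry step rose and a later step fell. Tat moves the amino group off tyrosine and is a classic glucocorticoid-induced liver gene. It measured 11.21, 11.59, 11.60, 11.84 and 11.76 in I3C livers 1 to 5, against 11.18, 10.72, 10.82, 10.36 and 10.28 in vehicle livers 1 to 5. The groups only just missed each other, with I3C 1 at 11.21 and vehicle 1 at 11.18.

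The Tat difference was 0.93 ± 0.16 (SE, n = 5 per group, limma adjusted p = 0.0054), a 1.90-fold rise, and its call held with each array left out in turn (largest limma adjusted p 0.0183). With the GAPDH difference in the model it was 0.53 ± 0.24 and did not pass (limma adjusted p = 0.324). With the beta-actin difference it was 0.85 (limma adjusted p = 0.0669).

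Hgd opens the ring of homogentisate. Its values were 10.81, 10.95, 11.20, 11.03 and 11.25 in I3C livers 1 to 5 and 11.54, 11.54, 11.39, 11.33 and 11.43 in vehicle livers 1 to 5. The groups were separate, with a fall of 0.40 ± 0.09 on the log2 scale (SE, limma adjusted p = 0.0197), to 75.8% of the vehicle level. The call ended without I3C 2 or without vehicle 1 (limma adjusted p up to 0.0581). The GAPDH difference in the model ended it too, at -0.45 ± 0.15 (limma adjusted p = 0.181).

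Hpd, the dioxygenase between Tat and Hgd, averaged 14.08 ± 0.07 in I3C livers and 14.13 ± 0.07 in vehicle livers (SD, n = 5 each, limma adjusted p = 0.814). Fah, fumarylacetoacetate hydrolase at the end of the path, averaged 12.68 ± 0.05 in I3C livers and 12.69 ± 0.03 in vehicle livers, with a 95% interval of the difference from -0.13 to 0.11 (limma adjusted p = 0.957). The further measured genes Qdpr, which renews the cofactor of phenylalanine hydroxylation, and Gstz1, the isomerase before Fah, differed by 0.01 ± 0.07 and -0.06 ± 0.06 (SE), and neither passed.

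In methionine and glycine metabolism 2 genes fell. Gnmt uses up S-adenosylmethionine by methylating glycine. It had 11.94, 11.74, 11.76, 12.00 and 11.73 in I3C livers 1 to 5 and 12.32, 12.39, 12.37, 12.16 and 12.29 in vehicle livers 1 to 5. The groups were separate, and the fall of 0.47 ± 0.07 on the log2 scale (SE, limma adjusted p = 0.00256) left 72.0% of the vehicle level (95% interval 64.4% to 80.5%). It passed with the GAPDH difference in the model (-0.59 ± 0.12, limma adjusted p = 0.0382).

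Mat1a, which makes S-adenosylmethionine in liver, averaged 13.53 ± 0.05 in I3C livers and 13.67 ± 0.11 in vehicle livers (SD, n = 5 each, limma adjusted p = 0.353). Bhmt, which remethylates homocysteine with betaine, differed by 0.29 ± 0.09 (SE, limma adjusted p = 0.108). Cbs and Cth, the enzymes that turn homocysteine into cysteine, differed by 0.21 ± 0.09 (limma adjusted p = 0.286) and 0.005 ± 0.085 (limma adjusted p = 0.991). None of these 4 passed.

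Of 11 further measured genes of methionine and cysteine 3 fell and 0 rose. Cdo1, which oxidises cysteine, was 13.36 to 13.70 in I3C livers and 13.72 to 13.93 in vehicle livers, a fall of 0.33 ± 0.07 (SE, limma adjusted p = 0.021). Mpst, a sulfurtransferase of cysteine breakdown, fell by 0.35 ± 0.06 (SE, limma adjusted p = 0.00724). Sqor, which oxidises hydrogen sulfide in mitochondria, fell by 0.55 ± 0.11 (SE, limma adjusted p = 0.00929). The Cdo1 call ended without I3C 1, I3C 4, I3C 5, vehicle 1 or vehicle 2 (limma adjusted p up to 0.0586). None of the 3 passed with the GAPDH difference in the model (limma adjusted p from 0.146 to 0.276).

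Gldc, which releases carbon dioxide from glycine in the glycine cleavage system, measured 8.60, 8.86, 8.97, 9.12 and 8.85 in I3C livers 1 to 5 and 9.37, 9.00, 9.42, 9.27 and 9.37 in vehicle livers 1 to 5. I3C 4 overlapped vehicle 2. The fall of 0.40 ± 0.10 (SE, limma adjusted p = 0.0447) was the weakest call of the 8. It passed with I3C 4 or vehicle 2 left out and ended with any other single array left out (largest limma adjusted p 0.11). Its dimmer probe sets differed by -0.29 and -0.04, and the value with the GAPDH difference in the model was -0.31 ± 0.17 (limma adjusted p = 0.429).

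Amt, the aminomethyltransferase of the same complex, averaged 9.42 ± 0.07 in I3C livers and 9.25 ± 0.12 in vehicle livers (SD, n = 5 each) and did not pass (limma adjusted p = 0.277). Of 5 further measured glycine genes, limma called 0, and 3 had an unadjusted p under 0.05, all lower. They ranged from -0.74 to 0.09, and the lowest was also the lowest of the 68 other pathway genes.

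Serine, proline, lysine and branched-chain amino acids gave 8 of the 33 genes, of which limma called 0, and 2 had an unadjusted p under 0.05, Sds higher and Prodh lower. Sds, serine dehydratase, is a gene of fasting and high-protein feeding and varied widely between livers of one group. It ranged from 7.06 to 8.40 in I3C livers, with a median of 7.98, and from 6.90 to 7.82 in vehicle livers, with a median of 7.31. The ranges overlapped, and the difference was 0.55 ± 0.24 (SE, limma adjusted p = 0.285). Its spread within groups exceeded that of 98.9% of all genes.

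Sdsl, a relative of Sds, differed by -0.10 ± 0.11 (SE, limma adjusted p = 0.773) through its brightest probe set. Its dimmer probe set was lower, at -0.38 ± 0.07 (SE, limma adjusted p = 0.00937), so the 2 probe sets disagree on the call. Shmt2, the mitochondrial hydroxymethyltransferase that exchanges serine and glycine, was the 1 of 4 further measured serine and threonine genes to rise. It was 11.12 to 11.35 in I3C livers and 10.75 to 11.10 in vehicle livers (0.36 ± 0.08, SE, limma adjusted p = 0.0186). Its call ended without I3C 2, I3C 5 or vehicle 3 (limma adjusted p up to 0.0547) and held with the GAPDH difference in the model (0.58 ± 0.10, limma adjusted p = 0.021).

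Prodh begins proline breakdown. It ranged from 10.18 to 10.40 in I3C livers and from 10.34 to 11.06 in vehicle livers, with vehicle 5 the lowest vehicle value and inside the I3C range. The difference of -0.40 ± 0.11 (SE, limma adjusted p = 0.0696) became -0.50 without vehicle 5 (limma adjusted p = 0.00442) and -0.82 with the GAPDH difference in the model (limma adjusted p = 0.00746). Its dim second probe set, with a mean of 5.15, differed by 0.03 ± 0.11 (SE).

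Aldh4a1, the dehydrogenase that finishes proline breakdown, differed by -0.10 ± 0.09 (SE, limma adjusted p = 0.692). Prodh2, which acts on hydroxyproline, fell by 0.65 ± 0.09 (SE, limma adjusted p = 0.00117). It was 11.31 to 11.77 in I3C livers and 12.12 to 12.32 in vehicle livers, with no overlap, and did not pass under the GAPDH model, at -0.67 ± 0.15 (limma adjusted p = 0.0667).

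Lysine and branched-chain genes lay close to no difference. Aass, which starts lysine breakdown, differed by 0.07 ± 0.09 (SE), with a 95% interval from -0.13 to 0.27. Bckdha and Bckdhb, subunits of the branched-chain ketoacid dehydrogenase, differed by -0.01 ± 0.08 and -0.06 ± 0.11 (SE). Bcat2, the branched-chain aminotransferase, was dim in both groups, at 6.03 ± 0.12 in I3C livers and 5.96 ± 0.12 in vehicle livers (SD, n = 5 each). The limma adjusted p of these 4 ran from 0.765 to 0.983. A dimmer Bckdha probe set differed by -0.28 ± 0.17 (SE, limma adjusted p = 0.479). The 4 further measured lysine genes ranged from -0.25 to 0.04, with 2 lower and 2 higher. Limma called 0 of them, and 1 was lower at an unadjusted p under 0.05.

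Of 18 further measured branched-chain genes 1 rose and 0 fell, and 15 were higher in the mean of the I3C livers. With the GAPDH difference in the model that direction turned, with 5 of the 18 higher and 13 lower, and with the beta-actin difference 14 were higher. Hibch, a hydrolase of valine breakdown, was 9.87 to 10.11 in I3C livers and 8.80 to 9.60 in vehicle livers (0.59 ± 0.13, SE, limma adjusted p = 0.0213). Its call ended without I3C 1, I3C 5 or vehicle 3 (limma adjusted p up to 0.0604). Its value was 0.14 ± 0.15 under the GAPDH model (limma adjusted p = 0.69).

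**Figure D4:**
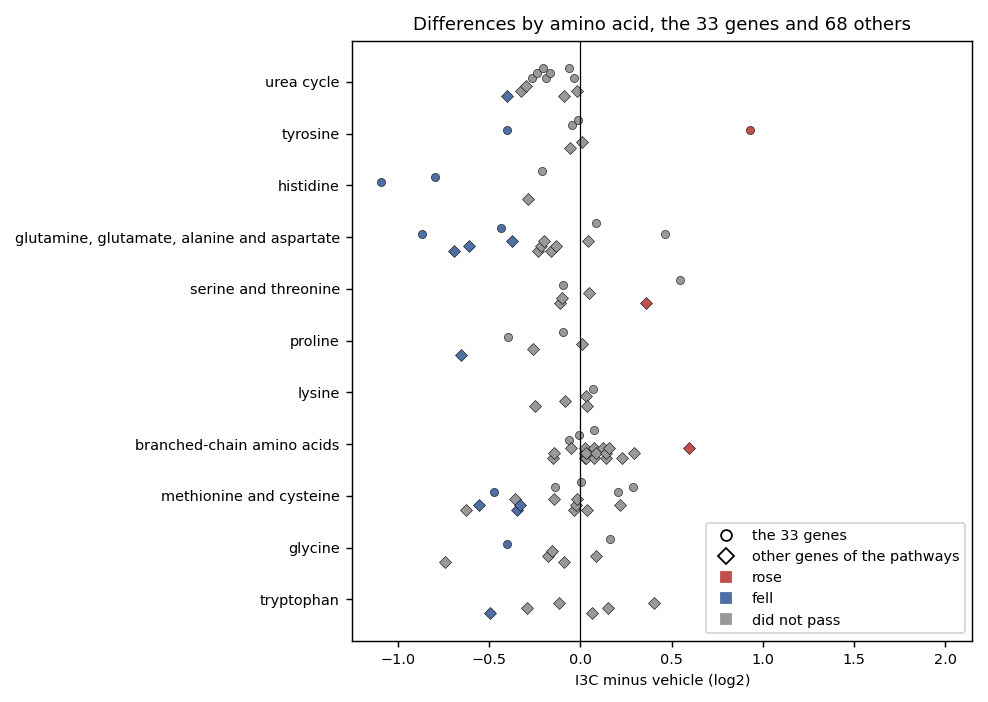
Difference between I3C and vehicle livers (log2, horizontal axis) by amino acid, with circles for the 33 genes and diamonds for 68 other measured genes of the same pathways. The lowest points are Hal in the histidine row and Gls2 in the glutamine, glutamate, alanine and aspartate row, and 15 of the 18 other branched-chain genes lie right of 0 in the fit shown (5 of 18 under the GAPDH model).

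Across all 68 other measured pathway genes, of 80 listed, 2 rose and 9 fell, with a median difference of -0.07. The 1 not yet named is Kmo, the kynurenine monooxygenase of tryptophan breakdown, which was 10.15 to 10.47 in I3C livers and 10.42 to 11.05 in vehicle livers and fell by 0.49 ± 0.11 (SE, limma adjusted p = 0.0256). Its call ended without I3C 3, I3C 4, I3C 5, vehicle 1, vehicle 2, vehicle 3 or vehicle 4 (limma adjusted p up to 0.0721). Without vehicle 5, 14 of the 68 fell. With the GAPDH difference in the model 1 rose and 3 fell.

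Among 14 regulators known to act on these enzymes 3 rose and 1 fell. Cebpb, a transcription factor of gluconeogenic and amino acid genes, rose by 0.69 ± 0.08 (SE, limma adjusted p = 0.000489), with 10.16 to 10.53 in I3C livers and 9.47 to 9.75 in vehicle livers. Ahr, the receptor for I3C products, rose by 1.02 ± 0.13 (SE, limma adjusted p = 0.000638), and Nr1i3, the xenobiotic receptor CAR, by 1.32 ± 0.20 (SE, limma adjusted p = 0.00181). A dim second Ahr probe set differed by 0.05 and did not pass. Gcgr, the glucagon receptor, was 8.94 to 9.23 in I3C livers and 9.32 to 9.89 in vehicle livers (-0.41 ± 0.10, SE, limma adjusted p = 0.0341).

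The Gcgr call held only without vehicle 1 or vehicle 5 among the single arrays left out (limma adjusted p otherwise up to 0.0884), and the value was -0.06 ± 0.11 with the GAPDH difference in the model. Only Cebpb of the 4 passed there (0.71 ± 0.14, limma adjusted p = 0.0382), with Ahr at 0.65 ± 0.18 and Nr1i3 at 1.18 ± 0.33. Of the 10 regulators that did not pass 8 were lower and 2 higher. The glucocorticoid receptor Nr3c1 differed by -0.42 ± 0.12 (SE, limma adjusted p = 0.0817), and Cebpa, Foxo1 and Onecut1, also with lower means, did not pass either. The insulin receptor Insr was higher, by 0.28 ± 0.09 (SE, limma adjusted p = 0.122). Nr3c1 passed without vehicle 5, Onecut1 without I3C 3 and Insr without vehicle 2.

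**Figure D5:**
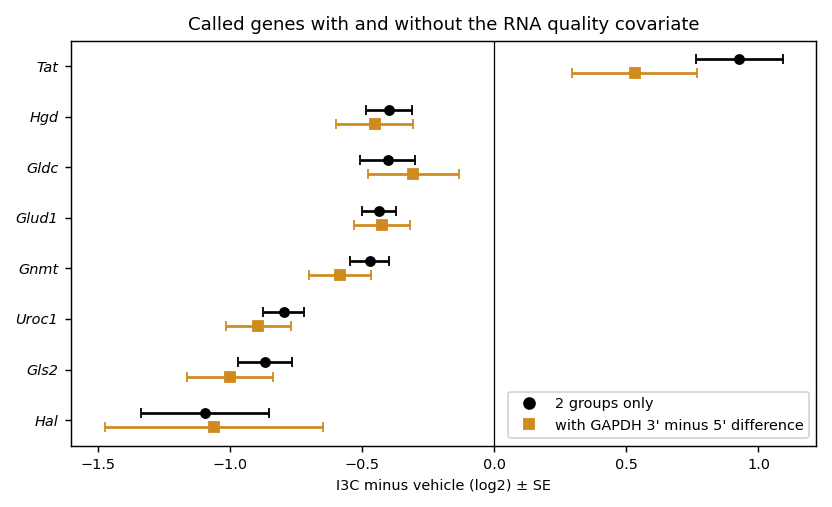
Difference between I3C and vehicle livers (log2, horizontal axis, bars for SE) of the 8 changed genes in the fit of the 2 groups (black circles) and with the GAPDH 3′ minus 5′ difference of each array in the model (orange squares). Tat shifts from 0.93 to 0.53, and the 7 fallen genes stay left of 0 with wider bars.

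Markers of cell types were checked beside these values. The hepatocyte markers were bright in all arrays, from 13.6 to 15.1, and Apoa1 was the 1 of 6 that changed (0.38 ± 0.07, SE, limma adjusted p = 0.00883). All 5 measured Kupffer cell and macrophage markers were lower in I3C livers, of which Cd5l fell (-0.52 ± 0.12, SE, limma adjusted p = 0.0256). At an unadjusted p under 0.05 limma placed 4 of the 5 markers lower and 0 higher. Their summed linear signal was 3303 to 4617 in I3C arrays and 4842 to 6255 in vehicle arrays. No marker of that list was near the bottom of the scale, the lowest value being 7.17. The Cd5l call ended without I3C 1, I3C 4, I3C 5, vehicle 1, vehicle 2 or vehicle 4 (limma adjusted p up to 0.0677). The part of these cells in the differences above was not tested.

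The other non-hepatocyte lists gave few changes. The 5 sinusoidal endothelial markers were all lower and none passed (2 lower at an unadjusted p under 0.05 by limma), with summed signals of 4699 to 5458 in I3C arrays and 5184 to 6205 in vehicle arrays. Of 6 stellate cell and fibroblast markers Rgs5 rose by 1.33 ± 0.18 and Lrat fell by 0.51 ± 0.10 (SE). None of the 4 cholangiocyte, 5 lymphocyte or 6 pancreatic acinar markers passed limma, with 0, 0 and 2 at an unadjusted p under 0.05.

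Of the zone markers, the periportal ones changed only downward and the pericentral ones in both directions. Of 7 periportal markers 2 fell, Cdh1 (-0.41 ± 0.07, SE, limma adjusted p = 0.0044) and Aldh1b1 (-1.47 ± 0.32, SE, limma adjusted p = 0.0185). In all, 6 of the 7 were lower, and 7 were with either covariate. At an unadjusted p under 0.05 limma placed 4 lower and 0 higher. The summed signal of the 7 was 26466 to 32621 in I3C arrays and 29008 to 34401 in vehicle arrays. The Aldh1b1 call ended without vehicle 1 (limma adjusted p = 0.0514). Of 8 pericentral markers Glul and Cyp2e1 (-0.33 ± 0.06, SE) fell while Tbx3 (0.92 ± 0.17) and Aldh1a1 (0.80 ± 0.17) rose, and in all 5 were lower and 3 higher. The summed signal of the 8 was 27642 to 32118 in I3C arrays and 33525 to 34934 in vehicle arrays. Cyp2e1 was the brightest of the 8, with means of 14.02 in I3C livers and 14.35 in vehicle livers, and weighs most in that sum. At an unadjusted p under 0.05 limma placed 3 pericentral markers lower and 3 higher. Of the 3 dimmer Tbx3 probe sets 1 passed (0.33). None of the 10 changed cell type and zone markers passed with the GAPDH difference in the model (limma adjusted p from 0.0855 to 0.495), where Tbx3 was 0.34 ± 0.18 and Aldh1a1 0.36 ± 0.24. With the beta-actin difference Rgs5, Glul and Tbx3 passed. The part of zonation in the falls of Hal, Uroc1 and Gls2 was not tested.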

How the data were processed

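The log2 expression values deposited by the authors come from RMA (robust multi-array averaging), as the submitters' processing notes name it, with no version or software. RMA equalises the distributions of arrays and compresses large folds. Its 31099 probe sets include 57 manufacturer's controls, left out of the tests. Values ran from 3.00 to 15.1 and array medians from 6.22 to 6.30. Arrays correlated at 0.983 to 0.997 with one another. Precision is limited by having 5 arrays per group.

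Probe sets took their symbols from the platform annotation, updated by Entrez ID through RefSeq (GRCr8, names and promoters only). A single gene was named for 20826 of 31042 probe sets, several for 436 (not used) and none here for 9780. I3C and vehicle arrays were set against each other in limma 3.58.1 under R 4.3.3 (lmFit, eBayes, two-sided, Benjamini-Hochberg adjustment over 31042 probe sets, threshold 0.05, prior degrees of freedom 4.60); ± after a difference is its SE and ± after a mean is the SD. Differences are I3C minus vehicle. A percentage of the vehicle level is 2 raised to the difference. On simulated arrays over 31042 probe sets the fit recovered 79.1% of 67 probe sets changed 1.5-fold and 97.0% of 67 changed 2-fold. Same-numbered arrays of the groups deviated together with correlations from -0.28 to 0.22. Such correlations cannot show whether samples were paired, and no label states a pairing, so the main fit treats them as unpaired. Alternatives changed the variance model, scaling, filter, probe set rule, covariates and arrays.

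The genes and lists were chosen with earlier results of these data known. Values of every array are given for changed genes and for the urea cycle, means or ranges for the rest, and of the other pathway genes, regulators and markers those that changed are named, up to 4 per amino acid and 6 regulators. Cebpa, Foxo1, Onecut1, Nr3c1, Insr, Hdc, Qdpr and Gstz1 were added after their values were seen.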

Additional observations from a re-analysis of the deposited data

Results flagged for a closer look

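In each group of 5 the distance of the lowest or highest array from its nearest neighbour was set against the group's whole range, and values past 0.71 of the range are given here. Chance marks about 1 in 20 groups, and 116 groups were examined over the 33 genes and the other changed genes. Among I3C livers, Hal stood low in I3C 1 at 9.85, as did the periportal marker Aldh1b1 at 6.84 in the same array. Prodh was low in I3C 5 at 10.18 and Bcat2 in I3C 5 at 5.81. In I3C 2 Bckdhb was low at 10.83 and Mat1a high at 13.62. Among vehicle livers Arg1 was high in vehicle 2 at 13.81 and Ftcd in vehicle 5 at 12.69. I3C 1 was the lowest I3C array for 14 of the 33 genes and the highest for 10.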

How the results depend on the processing

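The 33 genes gave 659 recomputed differences over 20 alternatives, of which 20, in 10 genes, took the other sign (Gpt among them) and none of those passed in either fit. Gls2, Uroc1 and Gnmt kept their calls in all 20, Glud1 in 19, Tat in 18, Hal and Hgd in 14 each and Gldc in 5. Of the 33 genes, 1 rose in the reported fit and 0 with either covariate. The 7 falls became 4 with the GAPDH or beta-actin difference, 5 under the replicate block and without moderation, 6 with centred arrays, 8 with the mean of probe sets, 9 with the brightness filter and with quantile normalisation, 10 with array weights, and 4 to 8 with 1 array left out. Of the other pathway genes 2 rose, and 0 to 3 did with 1 array left out. Under the replicate block, without moderation and with either covariate 1 rose. With the GAPDH covariate that gene was Shmt2, and with the beta-actin covariate it was Hibch. The 9 falls became 3 under the GAPDH covariate and 7 to 14 with 1 array left out. Under the alternatives that kept all arrays without the GAPDH covariate they became 6 to 12. Of the regulators 3 rose, with 1 under the GAPDH covariate and 3 or 4 with 1 array left out; 1 fell, with 2 under the variance trend and under the brightness filter, 3 with array weights and with the mean of probe sets, 0 without moderation and with either covariate, and 0 to 2 with 1 array left out. The cause of these shifts was not tested. No label states that the replicate numbers pair the arrays. With the replicate block Gldc (limma adjusted p = 0.0804) and Hgd (limma adjusted p = 0.0698) lost their calls and the other 6 kept theirs. The median difference of all genes was -0.004 as reported, -0.0002 after quantile normalisation and 0.009 after centring the arrays. Of simulated 1.5-fold changes 79.1% were recovered, in a setting with fewer changes than the data, so that share is not the power here. Small differences can be missed.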
